A study of Mus musculus with 10 samples.

Results

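The ERK and p38 kinases were followed here as 9 genes of the mitogen-activated protein kinase (MAPK) cascades, compared between lung squamous cell carcinomas (SCC) and normal lungs. They were Mapk3 (ERK1), its activating kinases Map2k1 (MEK1) and Map2k2 (MEK2), the p38 kinases Mapk14 (p38α), Mapk11 (p38β), Mapk12 (p38γ) and Mapk13 (p38δ), and the p38-activating kinases Map2k3 (MKK3) and Map2k6 (MKK6). The rule lists the genes by name, and each was read from its brightest probe, the probe with the highest mean over all 10 arrays. They are 9 of 19096 genes with at least 1 probe. RNA came from 5 whole lungs labelled wild type (WT), which carried the floxed allele Lkb1f/f, and from 5 whole lung tumours of CCSPiCreLkb1f/f mice, all of strain B6.129 and aged 13 months. CCSPiCre drives Cre recombinase in the airway epithelium, so Lkb1 was floxed in every cell of both groups and deleted, in the tumour group, in that epithelium and the cells that arise from it. Lkb1, also called Stk11, encodes a tumour suppressor kinase. Its own probe was not analysed here, so the deletion was not checked on these arrays.

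A MAPK cascade is a relay of kinases. In the ERK arm, receptor signals load RAS with GTP, RAS activates a RAF kinase, RAF phosphorylates MEK1 and MEK2, and these phosphorylate ERK, which carries growth signals to cytoplasmic and nuclear substrates. In the p38 arm, stress and cytokine signals reach a layer of MAP3 kinases, which activate MKK3 and MKK6, and these activate the p38 kinases. p38α is made in most tissues, p38γ is best known from skeletal muscle, and p38δ is abundant in epithelia, including the epidermis. The arrays measured the transcripts of these kinases, and kinase activity, set by phosphorylation, was not measured.

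Levels are given as log2 of the normalized fluorescence intensity of a probe, where 1 unit is a 2-fold difference. The level of a probe was not set against that of another probe. A gene was said to rise or fall where limma's adjusted p for its probe was below 0.05 over all 30374 probes tested. This was common on these arrays, since 49.0% of tested probes passed, 22.4% higher and 26.6% lower in SCC, and the median absolute difference was 0.501. Adding a 2-fold requirement left 22.9% of probes, and the values of the 5 SCC arrays did not overlap with those of the 5 WT arrays for 37.2%. These shares are over probes, some without a gene name, whereas genes are counted below by 1 probe each. Over genes read from 1 probe each, the median absolute difference was 0.488, and the share passing is not given here.

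The tumour arrays carried the squamous genes of their label. The mean level of 5 squamous markers (Krt5, Krt14, Krt6a, Trp63 and Dsg3) ranged from 4.27 to 4.89 in WT and from 11.59 to 15.04 in SCC. Krt5, Krt14 and Trp63 were above background in both groups and rose. Krt6a and Dsg3 were not well above background on any WT array, so that the WT mean lies partly at the floor of the arrays. A pair of tumour arrays stood apart. SCC replicate 2 had the lowest squamous mean (11.59, against 14.63 to 15.04 on the other 4) and the highest mean of 5 general epithelial markers (15.61, against 14.65 to 14.99). SCC replicate 5 had 90.2% of probes well above background, against 71.0% to 74.5% on the other 9 arrays. It also carried both Xist (13.75) and Y-linked Ddx3y (8.34), whereas the other arrays carried either Xist (3 WT and 3 SCC) or Y-linked transcripts (2 WT, and SCC replicate 2). Whether the RNA of SCC replicate 5 came from 1 mouse was not tested, so its place as 1 of the 5 SCC samples is uncertain. The part of sex in the results was not tested.

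All 9 kinase genes were above background on all 10 arrays. Mapk13 rose 4.57-fold and Mapk12 fell 2.72-fold, while Map2k1, Map2k2 and Map2k3 rose and Mapk14 fell by less than 2-fold. In all, 6 of 9 passed, 4 higher and 2 lower in SCC, 2 of them by at least 2-fold, and the groups did not overlap for 5. These shares stand against the percentages for all probes given above, and their median difference was 0.433, against -0.0903 over all tested probes. RNA of a whole lung or tumour mixes many cell types, so more transcript per cell and more cells of a type that makes it cannot be told apart. Without SCC replicate 2, 8 of 9 passed, 5 higher and 3 lower, and 4 reached 2-fold, while the shares over all probes also grew, to 58.8% passing and 26.8% with 2-fold. Without SCC replicate 5 the counts were again 4 higher and 2 lower (52.8% of all probes passed), and without both they were 5 and 3 (65.0%).

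**Figure D1:**
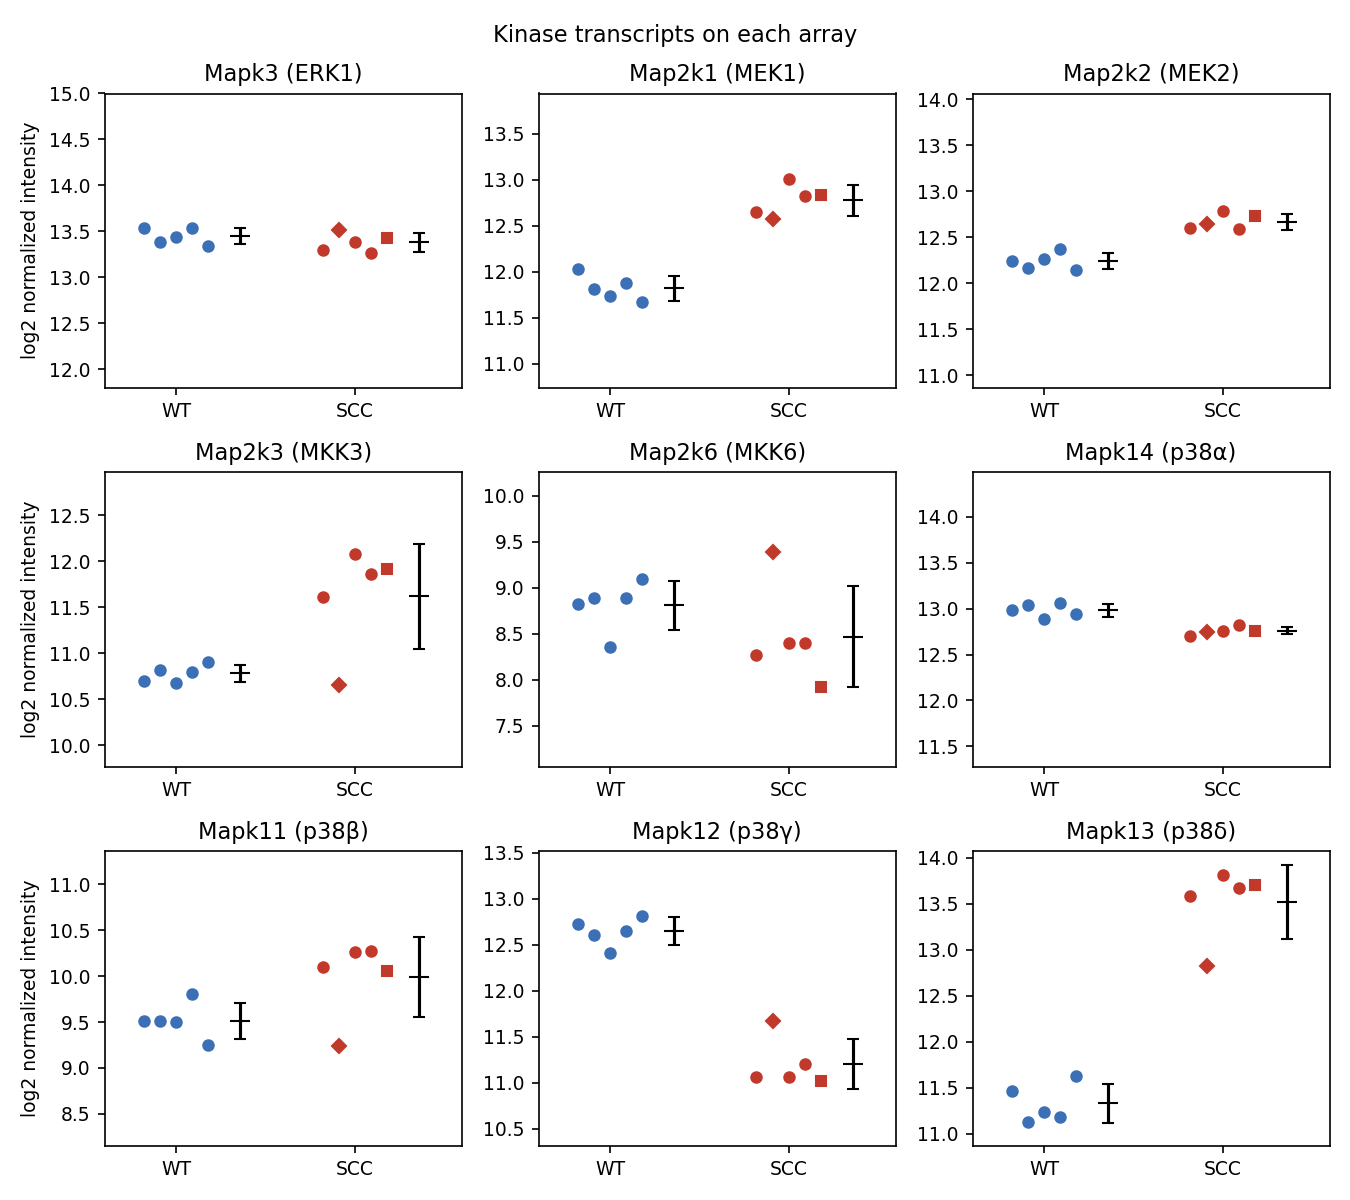
Log2 normalized intensity (y axis, each panel spanning the same number of units) of the brightest probe of each kinase gene on the WT (blue) and SCC (red) arrays, with the mean and SD of 5 arrays in black. Diamonds mark SCC replicate 2 and squares SCC replicate 5. Mapk13 lies between 11.13 and 11.63 in WT and between 12.82 and 13.81 in SCC, and SCC replicate 2 is its lowest tumour value.

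In the ERK arm, the kinases above ERK1 rose and ERK1 itself did not pass the test. Map2k1 encodes MEK1, which phosphorylates ERK on its activation loop. It was at 12.03, 11.81, 11.74, 11.88 and 11.67 on WT replicates 1 to 5 and at 12.65, 12.58, 13.01, 12.82 and 12.84 on SCC replicates 1 to 5. All 5 tumour arrays lay above all 5 WT arrays, SCC replicate 2 lowest among them. The rise was 0.96 (SE 0.11, 95% interval 0.71 to 1.20, limma adjusted p = 0.000104, exact permutation p = 0.00794, the smallest that 5 against 5 arrays allow), or 1.94-fold.

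Map2k2 encodes MEK2, which has the same substrates as MEK1. Its WT arrays lay between 12.14 and 12.37 and its SCC arrays between 12.59 and 12.79, again with no overlap. It rose by 0.43 (SE 0.082, limma adjusted p = 0.0019, exact permutation p = 0.00794), or 1.35-fold. The difference between both MEK probes was larger in SCC than in WT by 0.52 (SE 0.078, exact permutation p = 0.00794), so Map2k1 rose more than Map2k2 on the log2 scale.

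Mapk3 encodes ERK1, the kinase at the end of this arm. Its levels were 13.45 ± 0.092 in WT and 13.38 ± 0.10 in SCC (SD, n = 5 each). Its groups overlapped, between 13.34 and 13.54 in WT and between 13.26 and 13.51 in SCC. The difference of -0.07 had a 95% interval from -0.26 to 0.12 (limma adjusted p = 0.53, exact permutation p = 0.286). Another, dimmer Mapk3 probe also differed by -0.07 (limma adjusted p = 0.453).

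The kinases that activate p38 gave opposite signs, and for both SCC replicate 2 lay apart from the other tumour arrays. Map2k3 encodes MKK3. It was at 10.70, 10.82, 10.67, 10.80 and 10.90 on WT replicates 1 to 5 and at 11.61, 10.65, 12.08, 11.86 and 11.91 on SCC replicates 1 to 5. All tumour arrays were above the WT range except SCC replicate 2, which lay just below it. Over all arrays Map2k3 rose by 0.85 (SE 0.24, 95% interval 0.30 to 1.39, limma adjusted p = 0.0162, exact permutation p = 0.0476), or 1.80-fold. Without SCC replicate 2 the rise was 1.09 (SE 0.10, limma adjusted p = 2.84e-05) and the groups did not overlap.

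Map2k6 encodes MKK6, which activates the p38 kinases alongside MKK3. It was at 8.82, 8.89, 8.36, 8.89 and 9.10 on WT replicates 1 to 5 and at 8.27, 9.39, 8.40, 8.40 and 7.92 on SCC replicates 1 to 5. SCC replicate 2 was the highest of all 10 arrays. The difference of -0.34 (95% interval -0.91 to 0.23) did not pass (limma adjusted p = 0.295, exact permutation p = 0.254). Without SCC replicate 2, Map2k6 fell by 0.57 (SE 0.16, limma adjusted p = 0.0153). Its dimmer probe stood well above background on 0 of 5 WT and 2 of 5 SCC arrays and was not tested. The difference between the Map2k3 and Map2k6 probes was larger in SCC by 1.18 (SE 0.49, exact permutation p = 0.0476), and this call was lost in 9 of 10 fits that left out 1 array, all but the fit without SCC replicate 2 (exact permutation p = 0.0794 to 0.0952). With SCC replicate 2 below the WT range, the fits that kept it could not reach 0.05 with fewer arrays, so these losses do not measure stability. The difference between these probes was 1.26 on SCC replicate 2, below the WT range of 1.81 to 2.31, and 3.34 to 3.99 on the other tumour arrays.

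**Figure D2:**
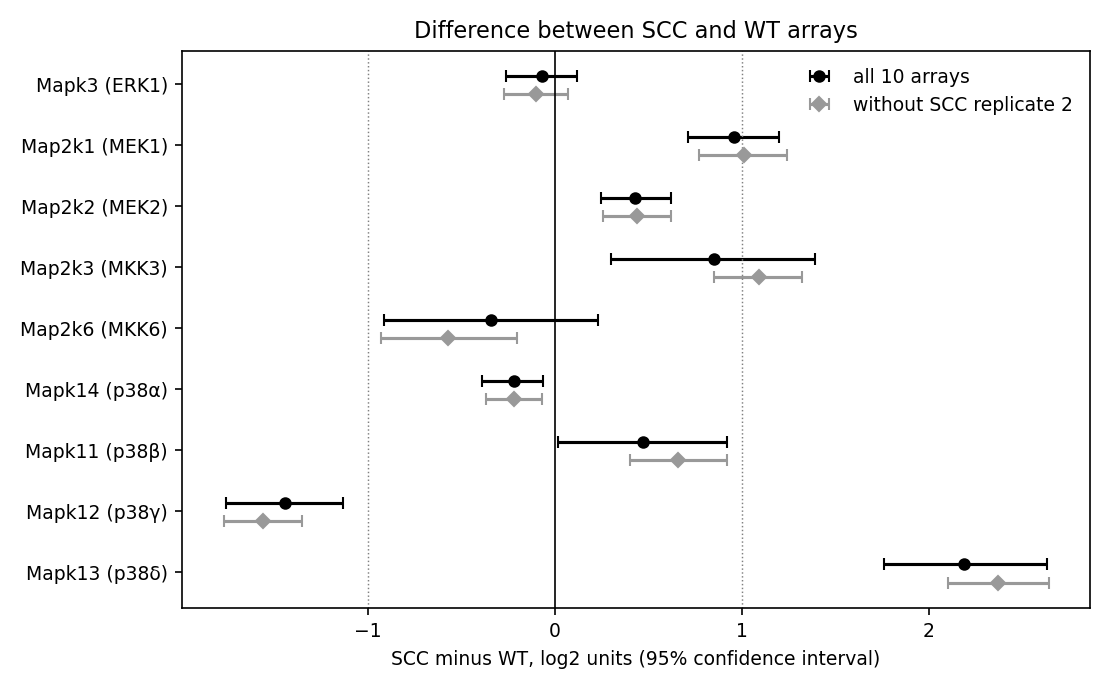
Difference between the SCC and WT means of each kinase gene (x axis, log2 units) with its 95% confidence interval from limma, over all 10 arrays (black circles) and without SCC replicate 2 (grey diamonds). Dotted lines mark 2-fold. Mapk13 (2.19) and Mapk12 (-1.44) lie beyond 2-fold with all 10 arrays, and the intervals of Map2k3, Mapk11 and Map2k6 shift away from 0 when SCC replicate 2 is left out.

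Among the 4 p38 kinases, p38δ rose, p38γ and p38α fell, and p38β did not pass. Mapk13 encodes p38δ and had the largest difference of the 9 genes. It was at 11.47, 11.13, 11.24, 11.18 and 11.63 on WT replicates 1 to 5 and at 13.59, 12.82, 13.81, 13.67 and 13.71 on SCC replicates 1 to 5. The lowest tumour array, SCC replicate 2, was still above the highest WT array. The rise was 2.19 (SE 0.19, 95% interval 1.76 to 2.63, limma adjusted p = 2.51e-05, exact permutation p = 0.00794), or 4.57-fold, and 5.17-fold without SCC replicate 2.

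Mapk12 encodes p38γ and moved the other way. It was at 12.73, 12.61, 12.41, 12.65 and 12.81 on WT replicates 1 to 5 and at 11.06, 11.67, 11.06, 11.20 and 11.02 on SCC replicates 1 to 5. All tumour arrays lay below all WT arrays, SCC replicate 2 nearest to them. Mapk12 fell by 1.44 (SE 0.14, limma adjusted p = 4.16e-05, exact permutation p = 0.00794), which left 36.8% of the WT intensity. Another Mapk12 probe gave -1.43 (limma adjusted p = 4.18e-05).

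Striated muscle markers moved with Mapk12. Of the 6 genes Myh6, Myl7, Actn2, Tnnt2, Ckm and Acta1, 4 fell and none rose, of which Actn2 was well above background on 5 WT but only 3 SCC arrays and so entered the test through the WT group alone. Their mean level ranged from 8.83 to 12.22 in WT and from 7.54 to 8.80 in SCC. Within the WT group, WT replicate 1 had the lowest muscle mean (8.83) and WT replicate 2 the highest (12.22), and Mapk12 was at 12.73 and 12.61 on these arrays. All 5 endothelial markers fell as well, from a mean of 13.76 to 13.97 in WT to 11.04 to 12.34 in SCC. So did 4 of 5 smooth muscle markers (mean 11.87 to 12.44 in WT, 10.97 to 11.85 in SCC) and 3 of 5 fibroblast markers (13.35 to 13.60 in WT, 12.19 to 13.17 in SCC), while 1 fibroblast marker rose. The part of these cell types in the Mapk12 result was not tested.

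Epithelial markers moved both ways beside the rise of Mapk13. Of 5 general epithelial markers, 4 rose and none fell, with a mean level of 13.70 to 14.09 in WT and 14.65 to 15.61 in SCC. All 3 club cell markers fell, from a mean of 17.50 to 18.10 in WT to 15.54 to 17.72 in SCC, and of 5 alveolar type 2 markers 3 fell and none rose. On SCC replicate 2, Mapk13 was at its lowest tumour value where this epithelial mean was highest and the squamous mean lowest. Neutrophil markers (3 of 4 tested rose) were between 10.15 and 11.05 in WT and at 10.28 on SCC replicate 2, against 12.70 to 12.89 on the other tumour arrays, and Map2k3 was likewise near the WT range on that array. Macrophage markers (2 of 5 rose and 1 fell) ranged from 13.44 to 13.94 in WT and from 14.41 to 14.53 in 4 tumours, with SCC replicate 2 at 13.55. All 5 cycling-cell markers rose, from a mean of 7.44 to 8.45 in WT to 9.73 to 11.44 in SCC. The part of these cell types in the kinase results was not tested.

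Mapk14 encodes p38α, the most widely made p38 kinase. It lay between 12.89 and 13.06 in WT and between 12.70 and 12.82 in SCC, so that the groups did not overlap. The fall was small, 0.22 (SE 0.073, 95% interval -0.39 to -0.06, limma adjusted p = 0.0288, exact permutation p = 0.00794), and left 85.6% of the WT intensity. It did not pass in 5 of the 10 fits that each left out 1 array (WT replicate 1, 2 or 4, or SCC replicate 1 or 3), with adjusted p up to 0.0735.

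Mapk11 encodes p38β. It was at 9.51, 9.51, 9.50, 9.80 and 9.25 on WT replicates 1 to 5 and at 10.10, 9.24, 10.26, 10.27 and 10.06 on SCC replicates 1 to 5. SCC replicate 2 was the lowest of all 10 arrays, and the other tumour arrays were above the WT range. The difference of 0.47 (SE 0.20, 95% interval 0.02 to 0.92) did not pass (limma adjusted p = 0.0766, exact permutation p = 0.0714). Without SCC replicate 2 it was 0.66 (SE 0.11, limma adjusted p = 0.00102).

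The 4 p38 genes lie as 2 neighbouring pairs in the mouse genome, and in each pair the measured differences had opposite signs. RefSeq places the start of Mapk13 and the upstream start of Mapk14 77975 bp apart on chromosome 17, and those of Mapk12 and Mapk11 8903 bp apart on chromosome 15 (GRCm38.p6). The 250 bases upstream of the start of each gene are printed 5′ to 3′ so that the neighbours can be compared. Capitals mark the GC box (GGGCGG, searched on both strands), a common element of promoters without a TATA box. For Mapk14, which has 2 annotated starts, the upstream start is shown. The Mapk13 window is chr17:28769067-28769316 (plus strand), the Mapk14 window chr17:28691092-28691341 (plus strand), the Mapk12 window chr15:89140704-89140953 (minus strand) and the Mapk11 window chr15:89149607-89149856 (minus strand).
Mapk13: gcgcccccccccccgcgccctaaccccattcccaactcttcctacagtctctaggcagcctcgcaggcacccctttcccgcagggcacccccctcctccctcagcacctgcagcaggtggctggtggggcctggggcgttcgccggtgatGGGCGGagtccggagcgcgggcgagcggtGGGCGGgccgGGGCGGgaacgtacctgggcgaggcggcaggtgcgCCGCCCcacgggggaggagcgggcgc
Mapk14: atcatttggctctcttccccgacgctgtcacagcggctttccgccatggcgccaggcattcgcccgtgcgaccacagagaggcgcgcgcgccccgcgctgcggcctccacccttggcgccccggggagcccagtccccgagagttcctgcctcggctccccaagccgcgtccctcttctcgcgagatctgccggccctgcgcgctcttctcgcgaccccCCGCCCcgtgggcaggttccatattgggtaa
Mapk12: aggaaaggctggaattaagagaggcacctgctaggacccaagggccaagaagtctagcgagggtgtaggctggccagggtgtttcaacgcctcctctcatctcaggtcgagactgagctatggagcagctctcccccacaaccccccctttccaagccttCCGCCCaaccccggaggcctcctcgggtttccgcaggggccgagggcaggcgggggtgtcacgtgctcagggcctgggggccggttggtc
Mapk11: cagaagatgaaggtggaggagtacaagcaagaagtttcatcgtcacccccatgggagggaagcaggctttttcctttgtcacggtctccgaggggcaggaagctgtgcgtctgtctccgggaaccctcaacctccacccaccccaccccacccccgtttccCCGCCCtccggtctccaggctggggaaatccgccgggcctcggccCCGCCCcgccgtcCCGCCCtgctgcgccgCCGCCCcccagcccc

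The neighbours differed in their GC boxes. The Mapk13 and Mapk11 windows held 4 each and the Mapk14 and Mapk12 windows 1 each, and 32.7% of 32851 annotated mouse windows of the same length held at least 1. None of the 4 windows held an AP-1 motif (TGANTCA, in 6.75% of all windows) or a TATA box (TATAAA, in 12.4%). They held 25, 30, 11 and 18 CpG dinucleotides in the order Mapk13, Mapk14, Mapk12 and Mapk11, against a median of 6 over all windows. These are letter matches only, and factor binding was not measured.

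Comparing kinases within each array removes any shift that affects a whole array. The absolute difference between 2 probes has no meaning of its own, but its change between groups does. The Mapk13 minus Mapk14 difference was between -1.92 and -1.31 in WT and between 0.08 and 1.05 in SCC, a change of 2.42 (SE 0.21, exact permutation p = 0.00794). For Mapk12 minus Mapk11 the WT arrays lay between 2.85 and 3.56, SCC replicate 2 at 2.43 and the remaining tumour arrays between 0.80 and 0.96, a change of -1.91 (SE 0.33, exact permutation p = 0.00794). Mapk13 minus Mapk12 changed most, by 3.64 (SE 0.31, exact permutation p = 0.00794), from a range of -1.49 to -1.17 in WT to 1.15 to 2.75 in SCC. In 4 of the 5 pairs examined no SCC array overlapped with a WT array, and the exception was Map2k3 minus Map2k6. Over the 5 pairs the Benjamini-Hochberg adjusted p was 0.00992 for these 4 and 0.0476 for the exception.

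**Figure D3:**
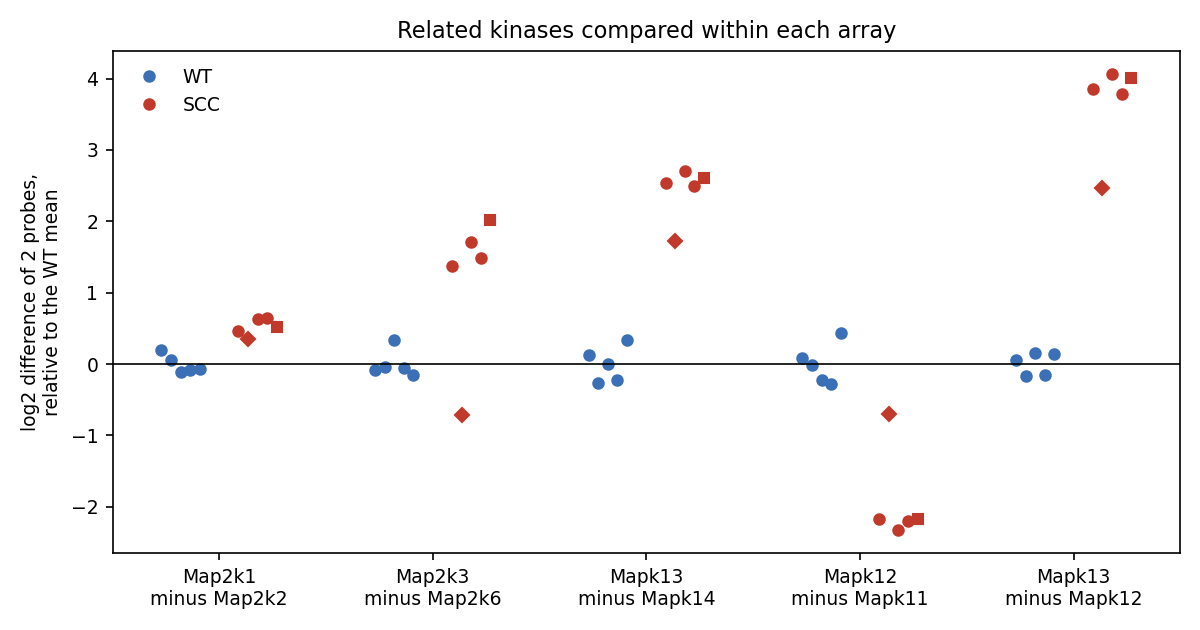
Log2 difference between the probes of 2 kinase genes within each array (y axis, set relative to the WT mean of that pair) for the 5 pairs examined, on the WT (blue) and SCC (red) arrays. Diamonds mark SCC replicate 2 and squares SCC replicate 5. SCC replicate 2 lies nearer to the WT arrays than the other 4 tumour arrays in all 5 pairs, and for Map2k3 minus Map2k6 it lies on the far side of 0.

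The genes whose levels ran most like Mapk13 over the 10 arrays, among 14109 genes above background on all of them, were Celsr2, Ttc22, Dmkn, Il13ra1 and Wnt4. Celsr2 is a cadherin of the planar polarity family, Dmkn is a secreted protein of the epidermis, Il13ra1 is a receptor chain for interleukin 13 and Wnt4 is a secreted WNT ligand. Pearson's r with Mapk13 was 0.9992 for Celsr2 and 0.9977 for Wnt4, the highest and lowest of the 5. The groups lay apart for all of them, with SCC minus WT from 1.71 for Il13ra1 to 4.73 for Ttc22. Over the 5 SCC arrays alone r was between 0.984 and 0.996, and these arrays include SCC replicate 2, which stood apart.

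The transcripts above MEK in the ERK arm mostly fell or did not pass. Of 21 RAS proteins, exchange factors, adaptors and RAF kinases, 12 passed, 2 higher and 10 lower in SCC (57.1%, against 49.0% of all tested probes), and their median difference was -0.37. The list also holds Nf1 and Rasa1, which switch RAS off, and both were among the lower genes (-0.58 and -0.37). The count of 2 higher was 1 without WT replicate 2, 3, 4 or 5 or SCC replicate 3 or 4. Araf (0.08) and Braf (-0.29), which encode RAF kinases, did not pass with their brightest probes, nor did Nras (0.10). Of the other Nras probes, 1 rose by 0.96 (limma adjusted p = 0.0052) and 1 gave 0.11 (limma adjusted p = 0.364). Hras rose by 0.67 (limma adjusted p = 0.00156).

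The 4 genes of this layer that fell by at least 2-fold were exchange factors and RAS relatives. Rasgrp2 and Rasgrp3, exchange factors of RAS-family proteins best known from blood and endothelial cells, fell by 1.88 (SE 0.38, limma adjusted p = 0.0029) and 1.65 (SE 0.12, limma adjusted p = 9.24e-06). The RAS-related GTPases Mras and Rras fell by 1.46 and 1.11, with all 5 tumour arrays below all WT arrays for each. The other 3 Mras probes gave -1.40, -1.10 and -1.07, of which the first did not pass (limma adjusted p = 0.0712). The endothelial and lymphocyte markers moved with these genes, since 5 of 5 endothelial, 4 of 5 T cell and 4 of 4 B cell markers fell, and their part in the result was not tested.

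Below ERK, the known ERK-dependent transcripts gave the highest share of passing genes. Of 9 tested, 8 passed (88.9%, against 49.0% of all tested probes), 5 higher and 3 lower, with a median difference of 0.77, and no test of the list was made. Epha2, an ephrin receptor, rose by 1.71 (SE 0.48, limma adjusted p = 0.0151) and was between 14.21 and 14.48 on 4 tumour arrays but at 11.71 on SCC replicate 2, below the WT range of 11.92 to 12.25. Etv4, an ETS-family transcription factor, rose by 1.70 (SE 0.20, limma adjusted p = 0.00012), and its close relative Etv5 fell by 1.77 (SE 0.38, limma adjusted p = 0.00376). Phlda1 rose by 1.30 (SE 0.10, limma adjusted p = 1.33e-05). The phosphatases that act on ERK also split, Dusp4 rising by 0.80 (limma adjusted p = 0.00875) and Dusp6 falling by 0.45 (limma adjusted p = 0.039).

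Of 11 ERK scaffolds and inhibitors tested, 5 passed (45.5%, against 49.0% of all tested probes), 2 higher and 3 lower. The 2 higher became 1 without WT replicate 2 or 4 or SCC replicate 1, 3 or 5, and 3 without SCC replicate 2. Among the lower genes, Pea15a gave opposite calls with its probes. The brightest fell by 0.86 (limma adjusted p = 0.000157) and the other rose by 1.09 (limma adjusted p = 0.00142). Spry1, a feedback inhibitor of receptor signalling, fell by 1.65 (SE 0.27, limma adjusted p = 0.000839). Of 10 ERK substrates, 4 fell (40%) and none rose with their brightest probes. Rps6ka3 (RSK2) gave 0.18 with its brightest probe (limma adjusted p = 0.592), but its other probe rose by 0.92 (limma adjusted p = 0.000162). Ets1, a transcription factor abundant in endothelium and lymphocytes, fell by 1.66 (SE 0.16, limma adjusted p = 3.75e-05), and its other probes gave -1.15 and -0.97. Another of the 4, Rps6ka6 (RSK4), was well above background on 5 of 5 WT arrays but only 1 of 5 SCC arrays. It entered the test through the WT group alone, where it had to be higher, and no size is given here, its point in the plot of pathway genes resting on SCC values mostly near background.

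In the p38 arm, no gene of the MAP3 kinase layer reached 2-fold with its brightest probe. Of 15 genes, 9 passed (60%, against 49.0% of all tested probes), 3 higher and 6 lower, with a median difference of -0.30. The list also holds genes that are not kinases. The 3 higher were Gadd45a and Gadd45g, which are not kinases, and Map3k7 (limma adjusted p = 0.0499). With 1 array left out, the count of higher genes ranged from 2 to 3. The brightest Taok2 probe, of a kinase that acts above MKK3 and MKK6, gave -0.96 (limma adjusted p = 8.07e-05), and its other probe gave -1.29 (limma adjusted p = 0.000865). Among the p38 substrates 7 of 11 passed (63.6%), 3 higher and 4 lower. Mapkapk3 (MK3), a kinase that p38 phosphorylates, was at 10.60 in WT and 12.43 in SCC on average and rose by 1.84 (SE 0.13, limma adjusted p = 7.84e-06), whereas its relative Mapkapk2 (MK2) differed by -0.01 (limma adjusted p = 0.971). The MEF2 factors split. Mef2c fell by 1.52 (SE 0.096, limma adjusted p = 4.31e-06) and Mef2a by 1.34 (SE 0.16, limma adjusted p = 0.00012), while Mef2d rose by 0.72 (limma adjusted p = 0.00605). Both falling genes are known from muscle. Markers of striated muscle (4 of 6), smooth muscle (4 of 5), endothelium (5 of 5), T cells (4 of 5) and B cells (4 of 4) fell. The part of these cell types in the MEF2 results was not tested. The other Mef2a probes gave -1.66 and -0.74, the latter not passing (limma adjusted p = 0.121).

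**Figure D4:**
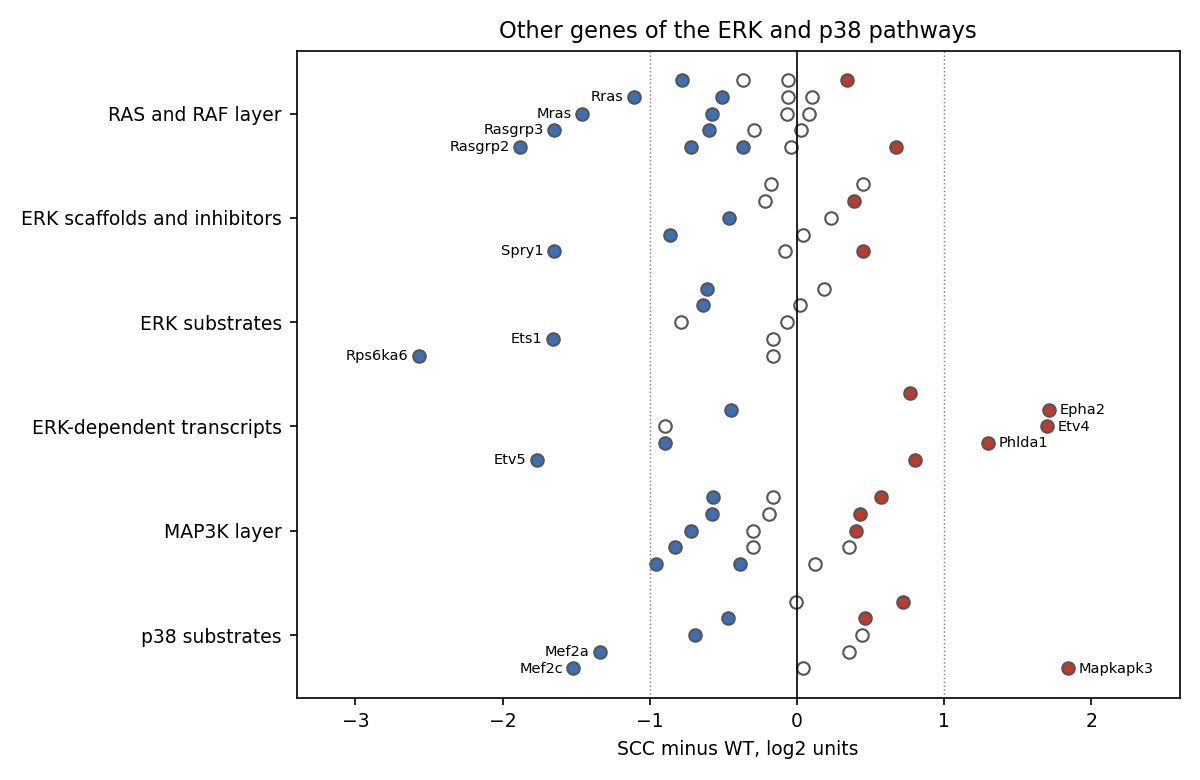
SCC minus WT (x axis, log2 units) of the brightest probe of 77 other genes of the ERK and p38 pathways, in rows by list, with points spread vertically for legibility. Filled points passed limma at an adjusted p below 0.05 (red higher, blue lower in SCC), open points did not, dotted lines mark 2-fold, and the 14 genes that passed with at least 2-fold are named. Of the 45 genes that passed, 30 lie to the left of 0.

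Over all 6 lists 45 of 77 tested genes passed (58.4%, against 49.0% of all tested probes), 15 higher and 30 lower. With SCC replicates 2 and 5 left out, where 65.0% of all probes passed, ERK-dependent transcripts again gave 5 higher and 3 lower, p38 substrates gave 4 and 4, and the RAS and RAF layer 1 and 12. With slide as a fixed block, which rests on 1 WT array, most of the calls over the 6 lists together were lost. The random slide block had an estimated correlation of -0.017, took out no slide effect and so does not test it.

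Slide and group were tied on these arrays. Slide 1 held WT arrays only (replicates 1 to 4) and slide 3 SCC arrays only (replicates 4 and 5). Slide 2 held the remaining 4 arrays, WT replicate 5 with SCC replicates 1 to 3. On slide 2, where the WT side is 1 array, SCC minus WT was 1.78 for Mapk13, -1.55 for Mapk12, 1.08 for Map2k1, 0.53 for Map2k2, 0.55 for Map2k3, -0.20 for Mapk14, 0.62 for Mapk11, -0.41 for Map2k6 and 0.07 for Mapk3. Without SCC replicate 2, the slide 2 difference was 0.95 for Map2k3, 0.93 for Mapk11, -0.76 for Map2k6 and 2.08 for Mapk13. The fit with slide as a fixed block rests on the same differences, with its spread taken from all 3 slides, so each of its calls turns on that WT array. In it 12.6% of all probes passed. Mapk13 (limma adjusted p = 0.0195), Mapk12 (limma adjusted p = 0.0133) and Map2k1 (limma adjusted p = 0.0189) passed, while Map2k2 (limma adjusted p = 0.069), Mapk14 (limma adjusted p = 0.395) and Map2k3 (limma adjusted p = 0.458) did not. Of the pathway lists, the RAS and RAF layer then gave 0 higher and 4 lower, ERK scaffolds and inhibitors 0 and 0, ERK substrates 1 and 1, ERK-dependent transcripts 1 and 1, the MAP3 kinase layer 0 and 1 and p38 substrates 1 and 2.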

How the data were processed

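RNA of 5 WT lungs and 5 SCCs was hybridized to Agilent 4 × 44K one-color mouse arrays, 1 per sample, and groups were taken from the sample titles. The deposited scanner files hold, per spot, a background-subtracted intensity written by Agilent Feature Extraction (version 12 in the submitters' processing notes). The authors also deposited a log2 matrix, which matched the quantile-normalized log2 values used here (r of at least 0.9999 per array across probes).

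After control spots and flagged outliers had been removed, log2 intensities were averaged per probe and 41174 probes were quantile-normalized as in the authors' methods. In place of their analysis of variance, limma 3.58.1 (R 4.3.3, two-sided, all 10 arrays, no covariates) was fitted to the 30374 probes well above background on at least 4 of 5 arrays of a group, with Benjamini-Hochberg adjustment over all of them, and was tested on simulated data. Single values were also compared by an exact two-sided permutation test over arrays (smallest p 0.00794). No source used here states the mice behind each array, so p-values measure the spread between these samples. The number of arrays limits the precision.

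Accessions were paired with symbols through RefSeq genes (GRCm38.p6), which named 68.5% of probes. A gene was read from its brightest probe. Of 82 other pathway genes listed, 77 were tested. Upstream sequences are from RefSeq (8 of 9 kinase genes matched). Arrays lay on 3 slides.

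The kinase genes, pathway lists and marker lists were chosen with earlier results of these data known. Named pathway genes passed limma with at least 2-fold, at most 6 per list. Araf, Braf, Hras, Nras, Nf1, Rasa1, Pea15a, Rps6ka3, Gadd45a, Gadd45g, Map3k7, Taok2, Dusp4, Dusp6, Mapkapk2 and Mef2d were named after their values were seen. The values of some listed genes are not reported here. Alternatives covered scaling, background correction, the deposited matrix, arrays left out, filters, replicate and slide blocks, array weights, the methods' t-test and other probes.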

Additional observations from a re-analysis of the deposited data

Results flagged for a closer look

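Within a group of 5 arrays, a value was listed here when its gap to the nearest other array exceeded 0.71 of the group's range, which chance gives in about 1 of 20 groups. Of 28 groups examined over the kinase genes and their pairs, 8 were listed, and 7 of them were SCC replicate 2. Among single genes, SCC replicate 2 was the low value of Mapk13 (gap 0.776 of the range) and of Mapk11 (0.796), and the high value of Mapk12 (0.728). Among pairs it was low for Mapk13 minus Mapk12 (0.824), Mapk13 minus Mapk14 (0.789) and Map2k3 minus Map2k6 (0.76), and high for Mapk12 minus Mapk11 (0.904). These 7 share 1 array and overlapping genes and are not independent of each other. The remaining value was WT replicate 3, high for Map2k3 minus Map2k6 (0.756), where it also had the lowest WT Map2k6 value (8.36).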

How the results depend on the processing

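Mapk13, Mapk12 and Map2k1 kept their direction and passed under every alternative run, with differences from 1.78 to 2.37, from -1.56 to -1.35 and from 0.897 to 1.08. Mapk14 was weakest. It ranged from -0.248 to -0.205 with 1 array left out and did not pass with a replicate block (-0.224, adjusted p = 0.109), so that 1 gene rather than 2 passed lower. The replicate numbers did not pair the samples (same-number correlations from -0.103 to 0.009), the replicate block changed no other kinase call, and probes called were 6571 with it. With 1 array left out, Mapk11 ranged from 0.401 to 0.658, Map2k6 from -0.565 to -0.197, genes passing lower from 1 to 3, genes passing with 2-fold from 2 to 4, and Map2k3 minus Map2k6 from 0.971 to 1.65 (exact p from 0.0159 to 0.0952). Every fit that kept SCC replicate 2 and left out another array put this pair above 0.05, which the place of SCC replicate 2 below the WT range fixes.

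With SCC replicates 2 and 5 both left out, Mapk11 (0.696) and Map2k6 (-0.455) passed and 4 genes passed with 2-fold. With array quality weights Mapk11 (0.617) and Map2k6 (-0.409) also passed. With slide as a fixed block, where the only slide with both groups has 1 WT array, Mapk3 turned to 0.0667 (adjusted p = 0.827), Map2k2 (0.535), Mapk14 (-0.203) and Map2k3 (0.547) did not pass, 2 genes passed higher and 1 lower, and 2989 probes were called. The random slide block (correlation -0.017) took out no slide effect. Probes called numbered 6954, 3969 with normexp (offset 50) on the median spot and background signals in place of the processed signal, which changes signal and correction at once, and 14878 with adjusted p alone. Scaling to the 75th percentile moved the median difference of all probes from -0.0903 to 0.0318 and the share of higher calls from 43.3% to 53.2%, and changed no kinase call. The cause of these changes was not tested.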
